A study of Mus musculus with 8 samples.

Results

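Ly6e and the 3 related genes Ly6a, Ly6c1 and Ly6c2 were examined in RNA sequencing of primary cultured mouse microglia. They are 4 of the 55385 genes in the count table, found by their GENCODE symbols. They were selected on counts of these same libraries, in which Ly6e was already known to be higher after IgG, so their differences between groups are given as a description and carry no test. The series compared 4 control libraries with 4 libraries from cells given 10 µg/ml IgG for 24 h, to ask which genes respond when IgG reaches microglia. All cells were wild-type and came from the neocortex and hippocampus of newborn (P0) mice. Brains were pooled into flasks, so no library stands for a single animal. Microglia were shaken off after 12 days, replated, and treated from day in vitro 15. The controls are called untreated in the labels and PBS-treated in the study's methods. The labels give each control library and the IgG library of the same number 1 date, without saying what was done on it, and these were taken as 4 pairs.

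Proteins of the Ly6/uPAR family are small, cysteine-rich molecules, and most are held at the outer face of the plasma membrane by a glycosylphosphatidylinositol (GPI) anchor. Ly6e is a widely used interferon-stimulated gene whose protein is known for effects on virus entry and T cell activation. Ly6a encodes Sca-1, a marker of blood stem cells and of endothelium that is itself interferon-inducible in many cells, and Ly6c1 and Ly6c2 encode the Ly-6C antigens used to mark monocytes and endothelial cells.

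The 4 genes lie in 1 cluster on chromosome 15. In GENCODE M21 on GRCm38, Ly6e (ENSMUSG00000022587) occupies chr15:74955051-74959905 on the plus strand. Ly6a (ENSMUSG00000075602) occupies chr15:74994877-74998031, Ly6c1 (ENSMUSG00000079018) chr15:75044018-75048830 and Ly6c2 (ENSMUSG00000022584) chr15:75108158-75111970, all on the minus strand. The coding sequence of Ly6e, of 408 bases and 136 codons without the stop codon, is shown first because this gene has the main response and is unlike the others. Bases 85 to 312 are printed, and capitals mark the 10 cysteine codons, from which the disulfide bonds of the fold are built.
Ly6e: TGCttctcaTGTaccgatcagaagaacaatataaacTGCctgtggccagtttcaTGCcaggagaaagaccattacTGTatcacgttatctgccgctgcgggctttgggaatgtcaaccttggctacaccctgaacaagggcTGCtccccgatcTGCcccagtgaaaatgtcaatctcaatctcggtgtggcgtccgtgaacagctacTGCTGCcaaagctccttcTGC

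Across their alignment, the Ly6e coding sequence was 51.9% identical to that of Ly6a, 48.9% to that of Ly6c1 and 47.8% to that of Ly6c2. No stretch of 50 bases in the Ly6e exons occurred in another annotated gene (0.0% of the stretches), so that in the annotation a read of this length or more belongs to it alone. Ly6c1 and Ly6c2 stood at the other extreme. Their coding sequences of 393 bases differed at 9 positions and were 97.7% identical. The first 300 bases are shown, with 7 of these positions in capitals, so that the likeness of the coding sequences can be seen.
Ly6c1: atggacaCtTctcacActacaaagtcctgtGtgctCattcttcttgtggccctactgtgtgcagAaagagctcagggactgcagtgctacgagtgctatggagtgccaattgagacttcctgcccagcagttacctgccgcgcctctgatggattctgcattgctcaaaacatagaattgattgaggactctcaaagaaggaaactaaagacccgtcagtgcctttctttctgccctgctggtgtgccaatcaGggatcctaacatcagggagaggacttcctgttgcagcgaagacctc
Ly6c2: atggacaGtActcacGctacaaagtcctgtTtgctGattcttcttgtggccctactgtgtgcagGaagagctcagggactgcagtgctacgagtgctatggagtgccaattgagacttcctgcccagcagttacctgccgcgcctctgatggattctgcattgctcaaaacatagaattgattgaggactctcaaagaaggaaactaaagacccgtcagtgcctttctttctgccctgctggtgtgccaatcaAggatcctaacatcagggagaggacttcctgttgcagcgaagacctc

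Ly6a, with 402 coding bases, was 81.8% identical to Ly6c1 and 81.6% to Ly6c2. Its first 300 bases are shown with capitals at the 68 bases that were not matched by the same base in Ly6c1.
Ly6a: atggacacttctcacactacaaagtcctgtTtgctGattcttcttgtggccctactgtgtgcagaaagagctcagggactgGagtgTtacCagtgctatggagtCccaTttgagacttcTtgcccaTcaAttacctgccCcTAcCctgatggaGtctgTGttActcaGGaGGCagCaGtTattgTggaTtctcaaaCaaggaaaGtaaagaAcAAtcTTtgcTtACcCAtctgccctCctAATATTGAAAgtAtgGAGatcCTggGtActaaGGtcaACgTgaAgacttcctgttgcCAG

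Stretches of 50 bases shared with other genes made up 19.0% of the Ly6a exons, 32.8% of those of Ly6c1 and 14.5% of those of Ly6c2. At 100 bases the shares were 1.4%, 10.1% and 5.8%. Since the handling of reads with several alignments was not given in the sources used here, single counts of these 3 genes are uncertain to that extent. Ly6c1 and Ly6c2 were therefore also summed.

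Ly6e was abundant in these cultures and higher after IgG in every pair. In the control libraries 1 to 4 it had 8723, 5581, 7503 and 3466 counts. In the IgG libraries 1 to 4 it had 15608, 9989, 12788 and 6848 counts. Scaled to CPM, counts relative to library size with TMM factors for composition, the control levels were 362, 252, 314 and 149 CPM. The IgG levels were 722, 434, 628 and 312 CPM. The mean level was 269 ± 91.8 CPM in control (SD, n = 4) and 524 ± 185 CPM in IgG libraries (SD, n = 4). The groups overlapped as groups, because the IgG library of pair 4 was lower than the control libraries of pairs 1 and 3. Within pairs they did not, and each IgG library was higher than the control of its own pair.

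The log2 change of Ly6e within a pair was 1.00 in pair 1, 0.79 in pair 2, 1.00 in pair 3 and 1.06 in pair 4. Its mean was 0.96 ± 0.12 (SD, n = 4). The edgeR fit over all genes gave a log2 fold change of 0.96 (SE 0.30), or 1.95-fold, with the groups alone. With the pair as a block the log2 fold change was again 0.96, with an SE of 0.09. The largest and the smallest control level differed by 2.42-fold, more than control and IgG did on average.

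**Figure D1:**
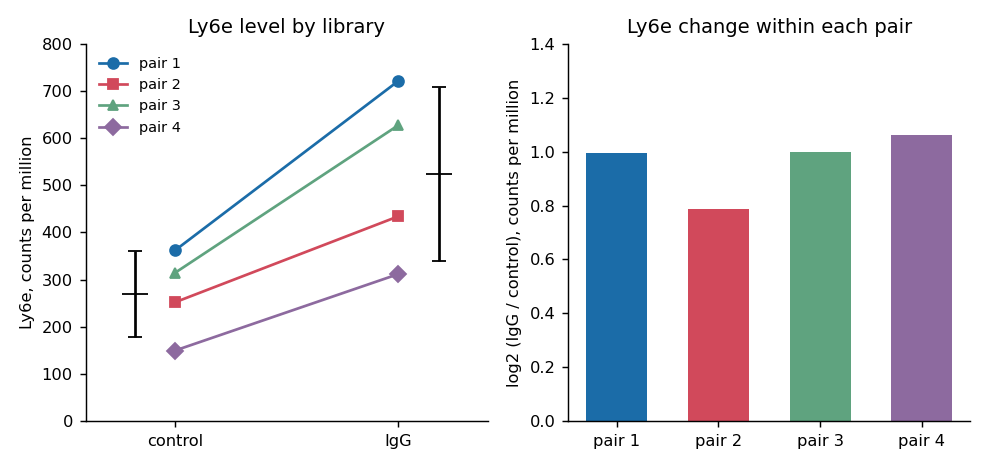
Left, Ly6e level in CPM in the 4 control and 4 IgG libraries, with lines joining libraries of the same pair and black bars giving the mean and SD of each group. Right, the log2 ratio of IgG to control within each pair, from 0.79 to 1.06, which differs less between pairs than the levels on the left do.

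Ly6e differed more between pairs in its level than in its change after IgG. Its SD over the control libraries, on the log2 CPM scale, was 0.56, against a median of 0.11 over 15669 genes with mean CPM of at least 1, and was larger than that of 97.4% of them. The SD of its change over the 4 pairs was 0.12, against a median of 0.26, and was larger than that of 13.6% of these genes. Its mean change over the pairs exceeded that of 99.6% of them. The SD and the mean of the change both belong to the paired contrast by which the gene was selected. They are a description only.

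Per length of exon, Ly6e reached 71.1 ± 24.3 RPKM in control (SD, n = 4) and 138 ± 49.0 RPKM in IgG libraries (SD, n = 4). On this scale its control level was above that of 95.5% of the 17537 genes that passed the filter on low counts. It took from 0.0156% to 0.0659% of all counts in a library. Of the counts of all 46 Ly6/uPAR family genes in the table, Ly6e held 71.5%, 57.9%, 66.6% and 42.9% in the control libraries 1 to 4. The shares in the IgG libraries were 88.7%, 73.8%, 85.8% and 61.4%. Thus Ly6e had more counts than the other family genes together in every library except the control of pair 4. These are shares of counts, not scaled to exon length.

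The libraries had between 21287816 and 23703216 counts. The share from mitochondrial genes was 2.32% to 2.41% in the controls, 2.21% and 1.97% in the IgG libraries of pairs 2 and 4, and 4.85% and 5.59% in those of pairs 1 and 3. The 2 libraries with high mitochondrial shares were also the ones with the highest Ly6e levels, and their controls were the highest controls. The Ly6e change was 0.79 and 1.06 in the pairs without such a library, and 1.00 and 1.00 in the pairs with one. Fitted on pairs 2 and 4 alone, the log2 fold change was 0.90, or 0.92 with the block. Microglial identity was examined with 12 marker genes. Their summed level was 4840, 4680, 5153 and 4803 CPM in the control libraries 1 to 4. It was 6252, 5041, 6457 and 5072 CPM in the IgG libraries 1 to 4, and so higher after IgG in each pair. The IgG libraries of pairs 2 and 4 lay within the range of all controls, though above the control of their own pair. All 12 had counts, and 11 passed the filter on low counts. The other, Siglech, had 9, 0, 3 and 4 counts in the control libraries 1 to 4 and 2, 0, 3 and 0 in the IgG libraries. Because these are bulk cultures, fewer cells of a type and less RNA per cell cannot be told apart.

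The pairs kept their order in both groups. Ly6e was highest in pair 1, then pair 3, pair 2 and pair 4, among the controls and again among the IgG libraries. This order in both groups was found in 508 of the 17537 tested genes, or 2.9%. Among 14 genes of interferon signalling it was found in 3, Irf7 among them, which encodes the transcription factor that drives interferon alpha genes.

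The genes whose levels ran most closely with Ly6e over the 8 libraries were Ms4a6c, Fcgr1, BE692007, Aoah and Phf11b. Likeness was measured as the root mean square difference of log2 CPM after each gene was centred on its own mean, and ran from 0.10 for Ms4a6c to 0.14 for Phf11b. Ms4a6c belongs to the Ms4a family of membrane proteins of myeloid cells. Its mean level was 272 CPM after IgG and 136 CPM without. Fcgr1 encodes CD64, the high-affinity IgG receptor, and its mean level was 284 CPM after IgG and 163 CPM without. Aoah encodes the lysosomal enzyme that inactivates bacterial lipopolysaccharide, and its mean level was 33.5 CPM after IgG and 15.9 CPM without. These points share libraries and differ in the same direction between groups, so likeness is a description only. When likeness was measured on the within-pair changes alone, the 5 nearest genes were Zbp1, BC147527, Cdh5, Ifit3 and Ms4a6b, and 0 of the first 5 were kept. Of the 10 nearest genes by each measure, 4 were shared, which were Ms4a6c, Aoah, Ifit3 and Ifit3b. Zbp1 is a sensor of left-handed nucleic acids and Ifit3 an interferon-induced antiviral protein.

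Ly6a was near the limit of detection, with counts that varied more between pairs than between the control and the IgG library of 1 pair. It had 3, 15, 7 and 19 counts in the control libraries 1 to 4. The IgG libraries had 4, 15, 7 and 25 counts. Each control therefore lay close to the IgG library of its pair, and pairs 2 and 4 were high in both groups. In CPM the means were 0.478 ± 0.324 in control (SD, n = 4) and 0.580 ± 0.420 in IgG libraries (SD, n = 4). The log2 changes within pairs 1 to 4 were 0.36, -0.05, 0.18 and 0.44. The fitted log2 fold change was 0.29 (SE 0.63), and 0.27 (SE 0.33) with the block. Per length, its control level of 0.397 RPKM was above that of 10.2% of tested genes.

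The order of pairs for Ly6a was the reverse of that for Ly6e, with pair 4 highest, then pair 2, pair 3 and pair 1, in control and in IgG libraries alike. Markers of the oligodendrocyte lineage were also high in pairs 2 and 4. The 9 markers summed to 1198, 1826, 1236 and 1650 CPM in the control libraries 1 to 4. They summed to 1027, 1716, 1039 and 1611 CPM in the IgG libraries, and all 9 were detected. Pair 2 exceeded pair 4 for these markers but not for Ly6a. The sum of 5 neuron markers, at a far lower level, had the order of Ly6a in both groups. It was 21.1, 26.6, 24.5 and 27.7 CPM in the control libraries 1 to 4. In the IgG libraries it was 13.7, 23.9, 23.1 and 24.9 CPM. Taken singly, only Tubb3 among these markers had that order in both groups, and Rbfox3, Snap25, Syt1 and Stmn2 did not. The sum of 7 astrocyte markers had the order of Ly6a among the IgG libraries alone. It was 128, 139, 141 and 142 CPM in the control libraries 1 to 4 and 116, 130.5, 130 and 137 CPM in the IgG libraries. Taken singly, Slc1a3 had that order in both groups, Aldoc among the IgG libraries and Slc1a2 among the controls. Gfap, Aqp4 and Aldh1l1 were highest in pairs 1 and 3 among the IgG libraries. The oligodendrocyte-lineage, neuron and astrocyte sums were each lower after IgG in every pair, while the microglial sum was higher. The part of these other cells in the Ly6a counts, and of these differences in the Ly6e change, was not tested. The genes nearest to Ly6a in likeness were Rpsa-ps10, a pseudogene that may share reads with its parent gene, followed by Ivl, Pcdh15, Plppr1 and Gpr37l1. Their differences from Ly6a ran from 0.14 to 0.36, wider than those around Ly6e, and rested on counts of at most 25 for Ly6a. The first 5 and those nearest in within-pair change shared 0 genes.

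**Figure D2:**
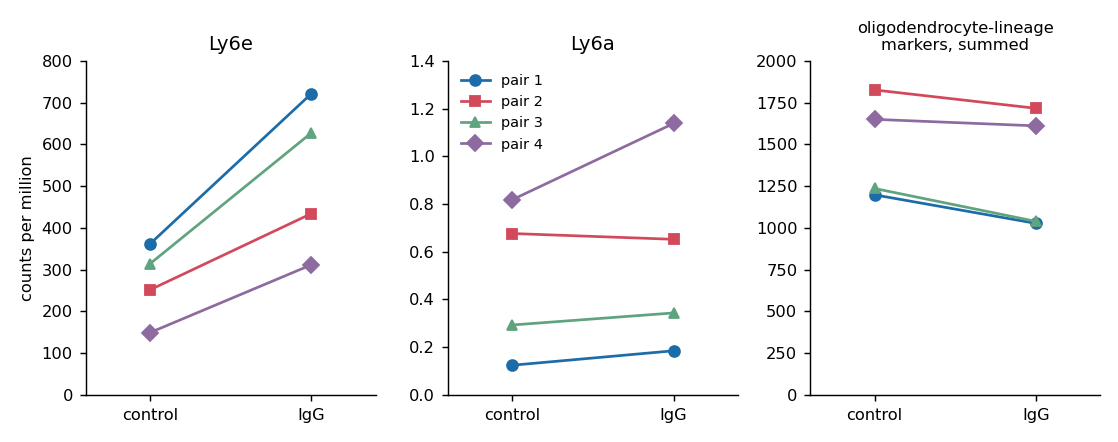
Levels in CPM of Ly6e, of Ly6a and of 9 summed oligodendrocyte-lineage markers, with lines joining the control and IgG libraries of a pair. Pair 1 is the highest for Ly6e and the lowest for Ly6a, and pairs 2 and 4 are the highest for Ly6a and for the summed markers.

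Ly6c1 and Ly6c2 were barely detected. Ly6c1 had 3, 2, 7 and 5 counts in the control libraries 1 to 4 and 0, 0, 5 and 5 counts in the IgG libraries. Ly6c2 had 1 count in control library 3, 1 count in IgG library 4, and 0 in the other 6 libraries. A count of 0 at this depth allows up to 0.124 to 0.147 CPM, which is the level of 3 counts. The groups overlapped for both genes, and neither passed the filter for the fit. Summed over both genes, there were 18 counts in control and 11 in IgG libraries, a ratio of 0.656 with a 95% exact binomial interval from 0.280 to 1.47 that covers counting error only. The interval includes a lower and a higher level after IgG. For Ly6a the same ratio was 1.25, with an interval from 0.815 to 1.91, on 44 and 51 counts. Likeness to other genes was not reported for Ly6c1 and Ly6c2, whose counts did not exceed 7.

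Markers of cells that carry Ly-6C or Sca-1 were read beside these counts. Of the monocyte markers, Plac8 and Chil3 were at 0 in all libraries, and the list of 8 summed to 141 to 150.1 CPM in control libraries. It summed to 198 and 212 CPM in the IgG libraries of pairs 1 and 3 and to 137 and 90.8 CPM in those of pairs 2 and 4. Of the endothelial markers, Cldn5 was at 0. The list of 12 summed to 174, 205, 170.5 and 223 CPM in the control libraries 1 to 4. It summed to 184, 172, 173 and 170.2 CPM in the IgG libraries. The endothelial sum was thus highest in pairs 2 and 4 among the controls but not among the IgG libraries. Taken singly, Flt1 and Vwf were highest in pairs 4 and 2 among the controls. The other tested endothelial markers, Pecam1, Kdr, Cdh5 and Egfl7, were highest there in pairs 1 and 3. Ly6g, the neutrophil marker Ly-6G, had 0 counts in every library. Of 10 neutrophil markers 4 were at 0, Mpo and Elane among them, and the list summed to 116 to 137 CPM, nearly all from Csf3r, a cytokine receptor gene. Of 9 T cell markers 5 were at 0, Cd3e and Cd8a among them, and the list summed to 2.41 to 3.05 CPM, mostly from Lck and Cd4.

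**Figure D3:**
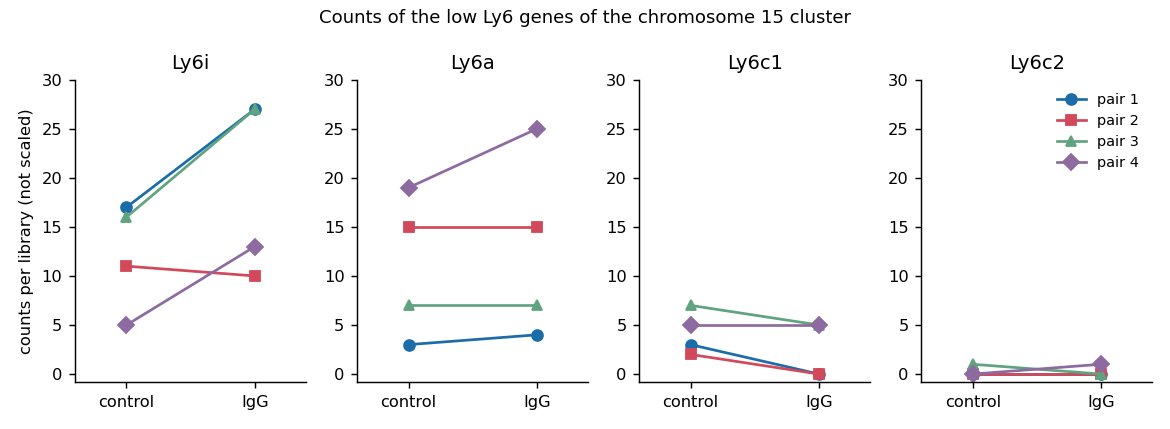
Counts per library, not scaled, of Ly6i, Ly6a, Ly6c1 and Ly6c2, with lines joining the libraries of a pair. Ly6a differs more between pairs than within them, with 3 to 25 counts, Ly6c1 does not exceed 7 and Ly6c2 does not exceed 1.

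The family was followed further to see whether the Ly6e change was shared. Besides the 4 members, 42 genes of the Ly6/uPAR family were in the table, of which 15 had 0 counts throughout and 8 passed the count filter. The criterion asked for p under 0.01 before adjustment in edgeR's quasi-likelihood test and for a log2 fold change beyond 0.5 in size. It was met by 0 of the 8, while 0.582% of all tested genes met it as higher and 0.262% as lower. With the block, where 1.48% and 0.342% met it, the count among the 8 was also 0. None passed a Benjamini-Hochberg adjusted p of 0.05 in either fit, against 0% of all genes without and 0.393% with the block, all higher. At p under 0.05 before adjustment, 0 of the 8 genes were higher and 1 was lower, against 4.83% and 2.18% of all genes. With the block 0 were higher and 2 lower, Cd59b and Plaur, against 6.35% and 3.85%. DESeq2 called none by the criterion. The median log2 fold change of the 8 genes was -0.04, against 0.00 over all tested genes.

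Ly6i, the nearest relative on the chromosome that passed the filter, came closest to Ly6e in size of change. It had 17, 11, 16 and 5 counts in the control libraries 1 to 4 and 27, 10, 27 and 13 counts in the IgG libraries. It was higher after IgG in 3 of 4 pairs, with changes of 0.75, -0.16, 0.90 and 1.16. The log2 fold change of 0.77 (SE 0.46) did not pass the edgeR test, with an adjusted p of 0.704 and of 0.501 with the block. It depended on single libraries, and was 0.50 without control library 4 and 1.00 without IgG library 2. Ly6i shared 4.8% of its 50-base stretches with other genes.

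Cd59b and Plaur had the lowest values. Cd59b encodes a GPI-anchored inhibitor of the complement membrane attack complex. Its level was 3.73, 3.47, 3.27 and 3.27 CPM in the control libraries and 2.50, 3.13, 1.57 and 1.46 CPM in the IgG libraries. All 4 IgG libraries were below all 4 controls, which was found in 1.57% of tested genes. The log2 fold change was -0.66 (SE 0.25), with an adjusted p of 0.692 in the edgeR test and of 0.364 with the block. Its neighbour Cd59a, which encodes the more widely expressed form, had a log2 fold change of 0.13 (SE 0.15), and 20.1% of the 50-base stretches of Cd59b were shared with other genes.

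Plaur encodes the urokinase receptor uPAR, the other family gene with a high level here. Its level was 115, 148, 131 and 168 CPM in the control libraries and 62.6, 122, 72.5 and 168 CPM in the IgG libraries. The 2 lowest values were in the IgG libraries of pairs 1 and 3, which also had the high mitochondrial shares, and the part of this in the Plaur values was not tested. Within pairs the log2 changes were -0.88, -0.28, -0.85 and 0.00. The fitted value was -0.40 (SE 0.28) and did not pass the edgeR test, with an adjusted p of 0.717 and of 0.365 with the block. The value depended on single libraries. It was -0.71 without IgG library 4, where Plaur met the criterion (adjusted p = 0.15 in the edgeR test), -0.22 without IgG library 1, -0.26 without IgG library 3 and -0.13 on pairs 2 and 4 alone. With the block and without pair 4 it was -0.69 (adjusted p = 0.0527 in the edgeR test). The order of pairs was that of Ly6a and the reverse of that of Ly6e in both groups.

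The other tested genes lay near 0. The log2 fold change was 0.02 (SE 0.20) for Lypd1, an inhibitor of nicotinic acetylcholine receptors. It was -0.14 (SE 0.29) for Lynx1, which has the same role in neurons. It was -0.09 (SE 0.28) for Lypd6, which modulates Wnt signalling, and 0.01 (SE 0.48) for the brain-expressed Ly6h.

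**Figure D4:**
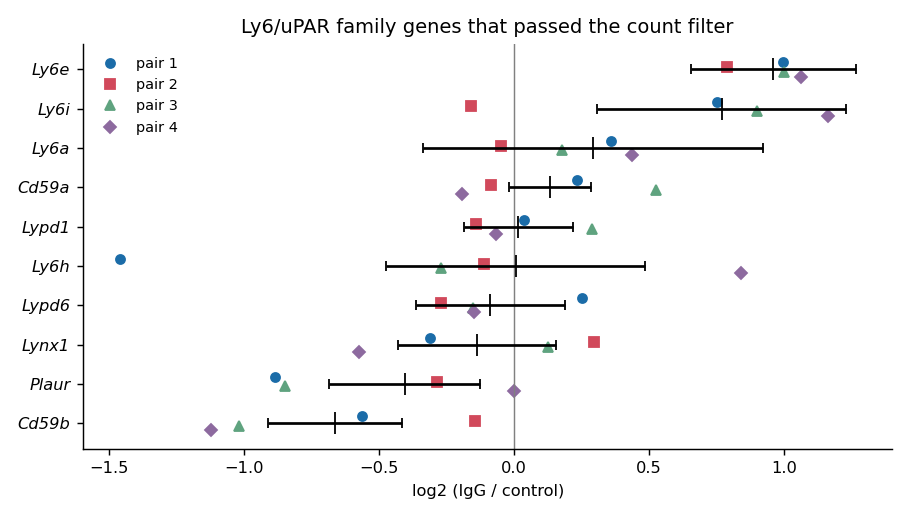
Log2 ratio of IgG to control for the 10 Ly6/uPAR family genes that passed the count filter. Coloured points are the 4 pairs and black bars the edgeR log2 fold change with its SE without the block. The 4 points of Ly6e lie together between 0.79 and 1.06, while those of the other genes spread more widely or lie about 0.

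The cluster held 19 annotated genes within 100 kb of a member, the 4 members included, and 9 of these had 0 counts. Besides Ly6e and Ly6a, Ly6i alone passed the filter. One sparse neighbour is named here after its values were seen. Gm39556, annotated as a long noncoding RNA 18.7 kb before the start of Ly6e on the same strand, had 4, 1, 5 and 0 counts in the control libraries and 13, 3, 9 and 2 in the IgG libraries. It was higher after IgG in each pair. Over the groups it had 10 and 27 counts, a ratio of 2.90 with a 95% exact binomial interval from 1.36 to 6.71 for counting error only. It was not in the fit.

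Interferon signalling genes were read beside Ly6e, since Ly6e is known to respond to interferon. Of 14 such genes, all tested, 0 were higher and 1 was lower by the criterion without the block, against 0.582% and 0.262% of all tested genes. With the block 3 were higher and 0 lower, against 1.48% and 0.342%. Once p-values were adjusted over all genes, the fit with the block held 2 of them, both higher, against 0.393% of all genes, and the other fit 0. These were Irf7, with a log2 fold change of 1.13 (SE 0.09, adjusted p = 0.00593 in the edgeR test with the block), and Usp18, which encodes a negative regulator of the interferon receptor, with 0.68 (SE 0.10, adjusted p = 0.0350 in the same test). In fits with the block that left out pair 1, 2 or 3, the edgeR adjusted p of Usp18 was 0.129, 0.224 and 0.169. That of Irf7 was 0.117 without pair 2 and at most 0.0238 without any other pair. The changes of Irf7 within pairs 1 to 4 were 1.06, 1.05, 1.11 and 1.30, all a little above those of Ly6e.

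The receptor and kinase genes had smaller values. The log2 fold change without the block was 0.09 (SE 0.10) for Ifnar1 and 0.16 (SE 0.08) for Ifnar2, the chains of the type I interferon receptor. It was 0.18 (SE 0.13) for Jak1 and -0.04 (SE 0.08) for Tyk2, the kinases bound to them. Socs1, an inhibitor of these kinases, had the lowest value of the list, -0.76 (SE 0.24), and was the gene lower by the criterion. Its mean level was 1.45 CPM after IgG and 2.46 CPM without, and its adjusted p was 0.692 in the edgeR test. Of the 14 genes, 7 were higher in all 4 pairs and 1 lower, against 10.4% and 8.47% of all tested genes. The median log2 fold change of the list was 0.17, against 0.00 over all genes.

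**Figure D5:**
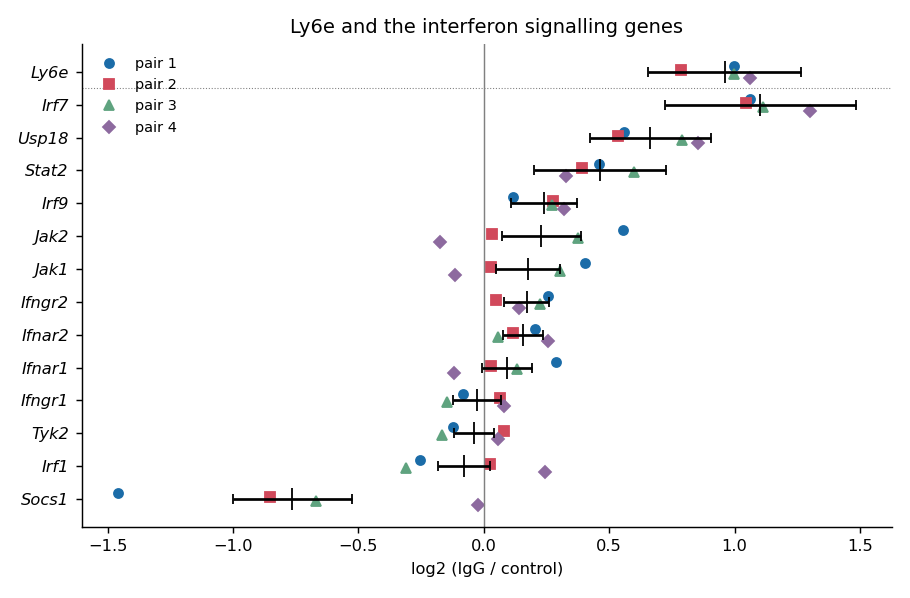
Log2 ratio of IgG to control for Ly6e, above the dotted line, and for the interferon signalling genes, 1 of which is not drawn, in order of their change. Coloured points are the 4 pairs and black bars the edgeR log2 fold change with its SE without the block. Irf7 lies beside Ly6e, the receptor and kinase genes lie near 0 and Socs1 lies lowest.

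Genes of the GPI anchor, which holds Ly6e and most of its relatives at the cell surface, were examined as a list. Of 31 genes tested, 2 were higher by the criterion and 0 lower, against 0.582% and 0.262% of all tested genes. These were Tmem8, which encodes an enzyme that trims the anchor, at 0.55 (SE 0.16), and Pigz, a mannosyltransferase, at 0.51 (SE 0.16). With the block Tmem8 alone met the criterion, at 0.54 (SE 0.10). Scaled by total counts, 0 genes of the list met it, and the calls over all genes were 60 higher and 82 lower. Neither Tmem8 nor Pigz passed adjustment in the fits on all libraries. The smallest adjusted p of the list there was that of Tmem8 in the edgeR test with the block, 0.0848. It was 0.0425 in the same test without pair 4. The largest fall in value was that of Pgap1, an anchor deacylase, at -0.14 (SE 0.17). The median of the list was 0.12, with 9 genes higher in all 4 pairs and 0 lower, against 10.4% and 8.47% of all tested genes. The list summed to 885 to 902 CPM in control libraries, to 1106 and 1116 CPM in the IgG libraries of pairs 1 and 3, and to 927 and 926 CPM in those of pairs 2 and 4. The part of the mitochondrial share in this was not tested. On pairs 2 and 4 alone the criterion was met by 0 genes as higher and by Pgap1 as lower, at -0.53 (adjusted p = 0.894 in the edgeR test), and at -0.55 (adjusted p = 0.0161) with the block.

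Of 55 tested markers of cell types, 3 passed adjustment with the block, all higher, against 0.393% of all genes. They were the microglial genes Aif1, at 0.69 (SE 0.10, adjusted p = 0.0331 in the edgeR test), and Fcrls, at 0.83 (SE 0.11, adjusted p = 0.0329 in the edgeR test), and Ms4a4c from the monocyte list, at 1.44 (SE 0.16, adjusted p = 0.0145 in the edgeR test). Ms4a4c is also known as an interferon-inducible gene. None of the 3 passed adjustment in the fits with the block that left out pair 1, 2 or 3, in which the edgeR adjusted p ran from 0.0612 for Ms4a4c to 0.263 for Aif1. The monocyte receptor Ccr2 had a log2 fold change of -0.78 (SE 0.32) without the block. Without the block, 3 microglial markers, which were Aif1, Fcrls and Tmem119, met the criterion as higher, against 0.582% of all genes, and 0 of all markers passed adjustment. What part a change in microglial share had in the Ly6e difference was not tested.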

How the data were processed

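For 8 libraries the deposited table gives raw counts for each Ensembl identifier. Per the study's methods and the submitters' processing notes, the authors removed adapter-containing and low-quality reads and aligned the rest with HISAT2 2.2.1 to GRCm38, and the notes also list featureCounts, SAMtools 1.12, Picard 2.26.3, R 4.1.2 and edgeR 3.36.0. Read length, strand use and the counting of reads with several alignments were not given in the sources used here. Symbols, coordinates and coding sequences came from GENCODE M21 (GRCm38), in which 55144 identifiers were found and 241 were not. 3 family names were matched through RefSeq synonyms, and the family genes Ly6g2, Ly6s, Lypd8l and Lypd10 were not analysed here.

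The members, gene lists and tests were chosen with earlier results of these data known. Counts were filtered with filterByExpr, which left 17537 genes, scaled with TMM and fitted in edgeR 4.0.16 (R 4.3.3) by quasi-likelihood, with Benjamini-Hochberg adjustment over all tested genes. The study's criterion was p under 0.01 before adjustment and a log2 fold change beyond 0.5 in either direction. The main fit had the group alone, and the alternative added a block for the replicate number. In the labels, the control and the IgG library of a number carry 1 date, whose meaning is not given. Correlations between control and IgG libraries were computed over 15669 genes with mean CPM of at least 1, after the group means were taken out. Libraries with the same number correlated at 0.408, 0.329, 0.256 and 0.315. Across numbers, 1 and 3 correlated at 0.198 and 0.144, and 2 and 4 at 0.164 and 0.167. The other combinations were negative. Each library correlated most with that of its own number, so the numbers were taken to pair the samples. No label says which animals went into which library, so p-values measure only the spread between these libraries, which may be technical. Within a group, no libraries agreed within sampling noise. The lowest chi-square per degree of freedom was 5.00. Log2 CPM used a prior count of 2. Intervals and the limit of 3 counts cover counting error only. Other scalings, filters, DESeq2 1.42.0, the likelihood ratio test and leaving out libraries or pairs were tried, and fits on pairs 2 and 4 alone were added after the data were seen. Values of 1 gene of the interferon signalling list are not reported here, though it is in the counts of that list. Genes were named by rule. The rule took the members, each other tested family or neighbouring gene, and the 5 genes nearest to each member. From the lists it took genes past adjustment and the largest rise and fall. Genes beyond the rule are named for their role, for meeting the criterion or for nearness to Ly6e by both measures of likeness. Gm39556 is named after its values were seen. Sequences were read with Biopython and figures drawn with matplotlib.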

Additional observations from a re-analysis of the deposited data

Results flagged for a closer look

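Of 48 groups of 4 libraries examined for single libraries that stand apart, over the tested family genes, the summed Ly6c1 and Ly6c2 level and the summed marker and pathway lists, 2 had one. Chance would be expected to flag about 1 group in 20. Neither concerns a Ly6 gene. The summed neutrophil list was 137 CPM in IgG library 3, against 118 to 121 CPM in the other IgG libraries. The summed neuron list was 13.7 CPM in IgG library 1, against 23.1 to 24.9 CPM in the others. Both are libraries with a high mitochondrial share.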

How the results depend on the processing

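The log2 fold change of Ly6e was positive under all alternatives tried, from 0.75 without control library 4 to 1.14 without IgG library 4, and scaling by total counts gave 0.85. That of Ly6a ran from -0.25 without IgG library 4 to 0.67 without control library 4, so its direction rested on single libraries. The summed Ly6c1 and Ly6c2 difference of mean log2 CPM ran from -0.94 to -0.26 around -0.59. Prior counts of 0.5 and 5 gave a mean within-pair change of 0.96 for Ly6e, and of 0.28 and 0.18 for Ly6a. Among other family genes, Ly6h (-0.61 to 0.43), Lynx1, Lypd1, Lypd6 and Cd59a changed sign under some alternatives, Ly6i, Plaur and Cd59b under none, and none passed adjustment. The criterion called 1 family gene without IgG library 2 (Cd59b) or 4 (Plaur) and 0 to 1 over all libraries and pairs left out. The causes of the shifts below were not tested, apart from the smaller numbers of libraries or genes in some fits.

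With the block, the criterion called 320 of all genes against 148 without it, and adjustment 69 against 0. It called 1 against 2 GPI anchor genes and 3 against 1 interferon signalling genes, of which 2 against 0 passed adjustment, and 3 markers passed adjustment against 0. By the criterion, the block called 4 markers against 3, losing Tmem119 and adding Ms4a4c and Cdh5, and it called no other family gene. Scaling by total counts split the calls over all genes as 60 higher and 82 lower, against 102 and 46 with TMM, and called 0 GPI anchor genes. RLE factors, upper quartile scaling and a filter of at least 10 counts in every library called 1. A filter of at least 1 count in total called 284 genes (4 after adjustment), 1 GPI anchor and 3 interferon signalling genes. DESeq2 called 53 genes after adjustment, with 2 interferon signalling genes by the criterion and 1 marker after adjustment. The likelihood ratio test called 255 genes (43 after adjustment), 3 interferon signalling genes and, after adjustment, 1 marker. Pairs 2 and 4 alone gave 3 genes after adjustment and 1 GPI anchor gene, which was lower where those called on all pairs were higher. The 1 interferon signalling gene called there was Irf7, higher, in place of Socs1, lower. With the block these pairs gave 327 genes (190 after adjustment), the same GPI anchor gene, Pgap1, also lower (1 after adjustment), 2 interferon signalling genes (2) and 6 markers (5).

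Leaving out each library or pair, with or without the block, gave 56 to 762 genes by the criterion and 0 to 182 after adjustment. The lowest was without pair 3 and the highest without pair 4 with the block, and leaving out IgG library 4 alone gave 610. With the block, leaving out pair 1, 2 or 3 gave 215, 326 and 216 genes, of which 14, 0 and 16 passed adjustment. The ranges were 0 to 2 and 0 to 1 for GPI anchor genes, 0 to 4 and 0 to 4 for interferon signalling genes, and 0 to 6 and 0 to 3 for markers. Depth limits Ly6a, Ly6c1 and Ly6c2, and not Ly6e.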
